A study of Rattus norvegicus with 20 samples.

Results

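Soleus muscle of rats whose spinal cord was completely transected was compared with the soleus of uninjured rats, using RNA sequencing counts per gene. The comparison took in 8 of the 20 libraries of the study, 4 from transected and 4 from uninjured Sprague-Dawley rats, chosen by their sample labels alone. Transected rats had the cord cut through at the T2 level, stayed unexercised and gave muscle 8.5 weeks after injury. Uninjured rats had no spinal cord injury, stayed unexercised and carry a label of 11.5 weeks. The other groups, which entered the same fit and so shared its filter, scaling and estimate of spread, were a T2 contusion without exercise (11.5 weeks), contusion with swimming and contusion with shallow water walking (13.5 weeks each), with 4 libraries per group. According to the design text, every rat was kept from day 4 in a small cage that limited its movement. Confinement thus began alike in both groups, though its length may differ with the labelled time. Labelled time differs together with the injury, between transected and uninjured rats and between transected and contused rats. The effects of time and injury therefore cannot be told apart.

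The soleus lies in the calf, is built mainly of slow fibres and is active for much of the time a rat stands. A transection high in the thoracic cord separates the motor neurons of the hind limb from the brain while leaving the nerve in contact with the muscle. Muscle that is kept from its usual activity in this way is known to lose mass and to shift from slow toward fast fibre types, with matching changes in contractile proteins, calcium handling and energy metabolism. These data carry Ensembl gene identifiers, and 0 of the 24613 identifiers could be paired with a gene name from the tables at hand. Neither fibre-type genes nor the markers that would check the tissue label were therefore read, and genes are described by level, direction and size of change.

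Transection libraries held 31877886 to 36438046 counts and uninjured libraries 26195066 to 39729930. Values are given as counts per 1000000 (CPM) with trimmed mean of M values scaling, and a gene was called changed at a Benjamini-Hochberg adjusted p below 0.05. Transection library 3 stood apart from the other 3 transection libraries before any gene was read. Its mean rank correlation with its own group was 0.972, against 0.979 to 0.983 for the other transection libraries and 0.985 to 0.987 for uninjured libraries. It lay at 77.2 on the first principal component of the 8 libraries and at -54.5 on the second, where the other transection libraries lay between 20.6 and 36.3 and between 22.6 and 35.3. Uninjured libraries lay between -45.9 and -31.0 on the first component, which held 50.5% of the variance, and between -20.6 and 2.82 on the second, which held 21.2%. Results are therefore also given without this library.

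**Figure D1:**
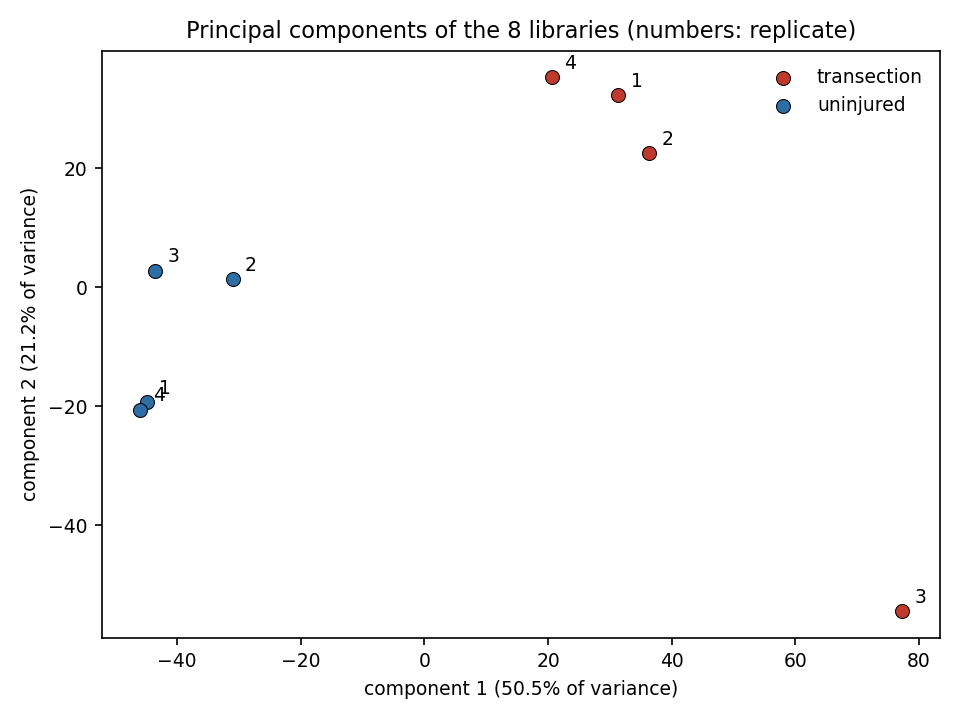
Principal components of log2 CPM over 13398 genes, with component 1 on the horizontal axis, component 2 on the vertical axis and each point a library numbered by replicate. Transection and uninjured libraries lie apart on component 1, and transection library 3 lies far from the other 3 transection libraries on component 2.

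Transection changed the level of 28.1% of the tested genes. Of 13398 genes, 1789 (13.4%) rose and 1976 (14.7%) fell (edgeR quasi-likelihood test). Most changes were modest: the median gene that rose did so 1.65-fold, and the median gene that fell did so 1.84-fold. In whole muscle, fewer cells of a type and less RNA per cell cannot be told apart. The test gave 1410 genes that rose and 1912 that fell when transection library 3 was left out. Library totals as the only scaling turned the division to 506 higher and 4191 lower, and moved the median log2 change of all genes to -0.32, against 0.02 with the scaling used. Direction is thus relative to the bulk of the genes. A fit of the transected and uninjured groups alone tested 12924 genes, of which 1495 rose and 1844 fell.

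Over all tested genes the falls reached further than the rises, though not among genes with the very highest counts. Log2 changes had a 5th to 95th percentile span of 0.37 to 2.01 among genes that rose, against -2.66 to -0.38 among genes that fell. Over 2-fold, 502 genes rose (3.75% of the tested genes) and 814 fell (6.08%). Between 2-fold and 4-fold were 410 genes that rose and 615 that fell. Above 4-fold lay 92 genes that rose and 199 that fell, 0.687% and 1.49% of the tested genes. A stricter test, which asks whether a change exceeds 2-fold rather than 0, passed 62 rises and 176 falls (edgeR glmTreat, adjusted p below 0.05, chosen after seeing the data). With library totals as the only scaling, 52 rises and 316 falls were above 4-fold, and without transection library 3 the numbers were 80 and 188. They were 64 and 131 when only genes with a mean of at least 1 CPM over the 20 libraries were tested. In the lowest of 10 classes by mean CPM, 26 rises and 54 falls were above 4-fold, against 19 and 24 in the highest class. Among the 96 genes with a mean of at least 1000 CPM over the 8 libraries, 10 rises and 5 falls were. Such means cover both groups, so a gene could enter a class or band through the group where it was high.

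Most called genes did not overlap between the groups. For 1417 of the 1789 genes that rose (79.2%), all 4 transection libraries lay above all 4 uninjured libraries. For 1703 of the 1976 that fell (86.2%) all 4 lay below. The calls rest on these same libraries, so the separation is no further support for them. Over all tested genes the groups were apart in this way for 28.8%, with transection above for 13.5% and below for 15.4%. The genes called the same way by edgeR, DESeq2 and voom numbered 1701 that rose and 1884 that fell. Those called the same way whichever of the 8 libraries was left out numbered 955 that rose and 1372 that fell, or 61.8% of all calls. Under every setting tried, library totals included, 440 rises and 1297 falls were called.

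**Figure D2:**
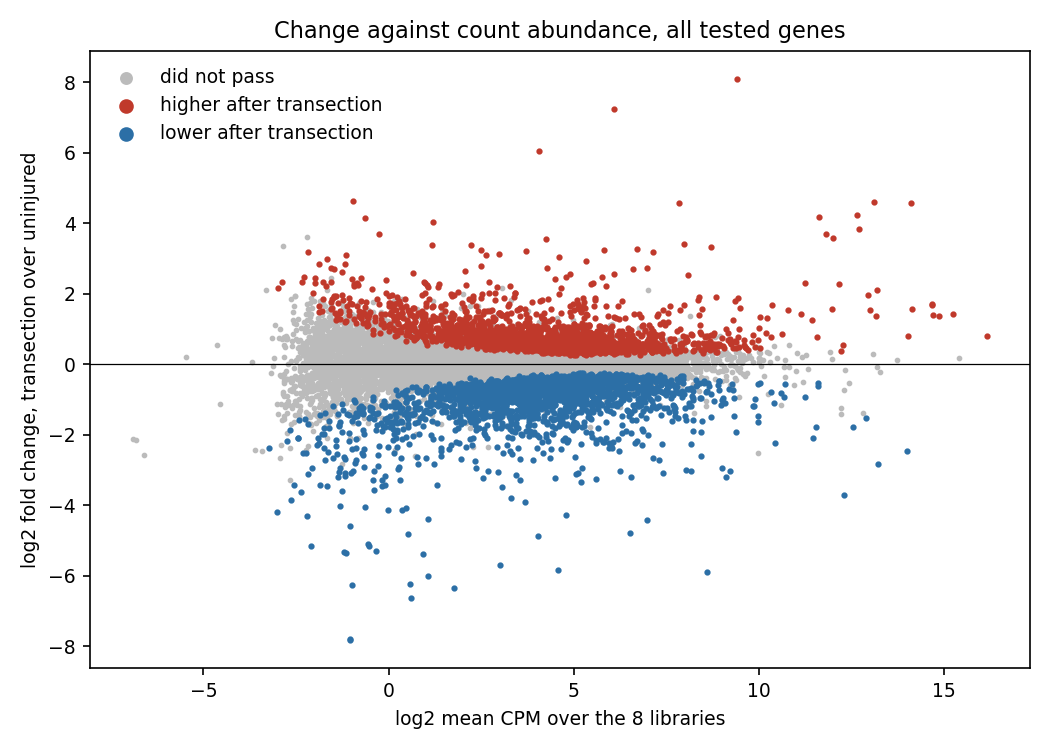
Log2 fold change of transection over uninjured (vertical axis) against log2 mean CPM over the 8 libraries (horizontal axis) for 13398 genes, coloured by the edgeR call. Called rises (1789) and falls (1976) occur at all count levels, and a group of genes at the right, with high counts, lies several log2 units above 0.

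Identifiers are named among called genes with a mean of at least 1 CPM over the 8 libraries and no overlap between the groups. The largest rise was that of ENSRNOG00000019745. It stood at 1202, 1904, 1377 and 965 CPM in transection libraries 1 to 4, against 5.88, 7.95, 2.40 and 3.69 CPM in uninjured libraries 1 to 4. The lowest transection library was 121 times above the highest uninjured one, and uninjured libraries still held 88 to 340 counts. The log2 change was 8.09, with an SE of 1.38 (edgeR adjusted p = 0.000419). The log2 change was 8.06 without transection library 3.

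ENSRNOG00000006471 had the next largest rise. It stood at 161, 163, 65.0 and 149 CPM in the transection libraries, against 1.56, 1.15, 0.382 and 0.505 CPM in the uninjured ones. Transection library 3 held the lowest level of the transected rats, well below the other 3, and the groups did not overlap. The means were 134 ± 46.6 CPM and 0.898 ± 0.553 CPM (SD, n = 4 each), and the log2 change was 7.23, with an SE of 1.85 (edgeR adjusted p = 0.00812). Without transection library 3 the log2 change was 7.44 (adjusted p = 0.0123), and with the transected and uninjured groups alone it was 7.22 (adjusted p = 8.18e-06). Leaving out swimming library 2 together with transection library 3 gave 7.44 (edgeR adjusted p = 0.000643).

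Among genes within these limits, the 2 identifiers that fell furthest were near absent after transection. Another 2 called genes had larger fitted falls but did not meet the limits. ENSRNOG00000046421 had 3, 0, 0 and 0 counts in the transection libraries, against 74, 200, 100 and 62 counts in the uninjured ones. Summed over libraries, its level was 0.00828 of the uninjured level, and the exact 95% interval, which covers counting error only, ran from 0.00170 to 0.0244 (edgeR adjusted p = 5.34e-05). Counts of this gene came from 1 of the 4 transected rats and from all 4 uninjured rats. ENSRNOG00000004356 had 4, 3, 0 and 2 counts in the transection libraries, against 155, 254, 151 and 357 in the uninjured ones, or 0.0740 ± 0.0579 CPM and 6.70 ± 3.14 CPM (SD, n = 4 each). It fell by 6.36 on the log2 scale, with an SE of 0.79 (edgeR adjusted p = 1.37e-05), and its summed level was 0.0118 of the uninjured level (0.00538 to 0.0225).

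**Figure D3:**
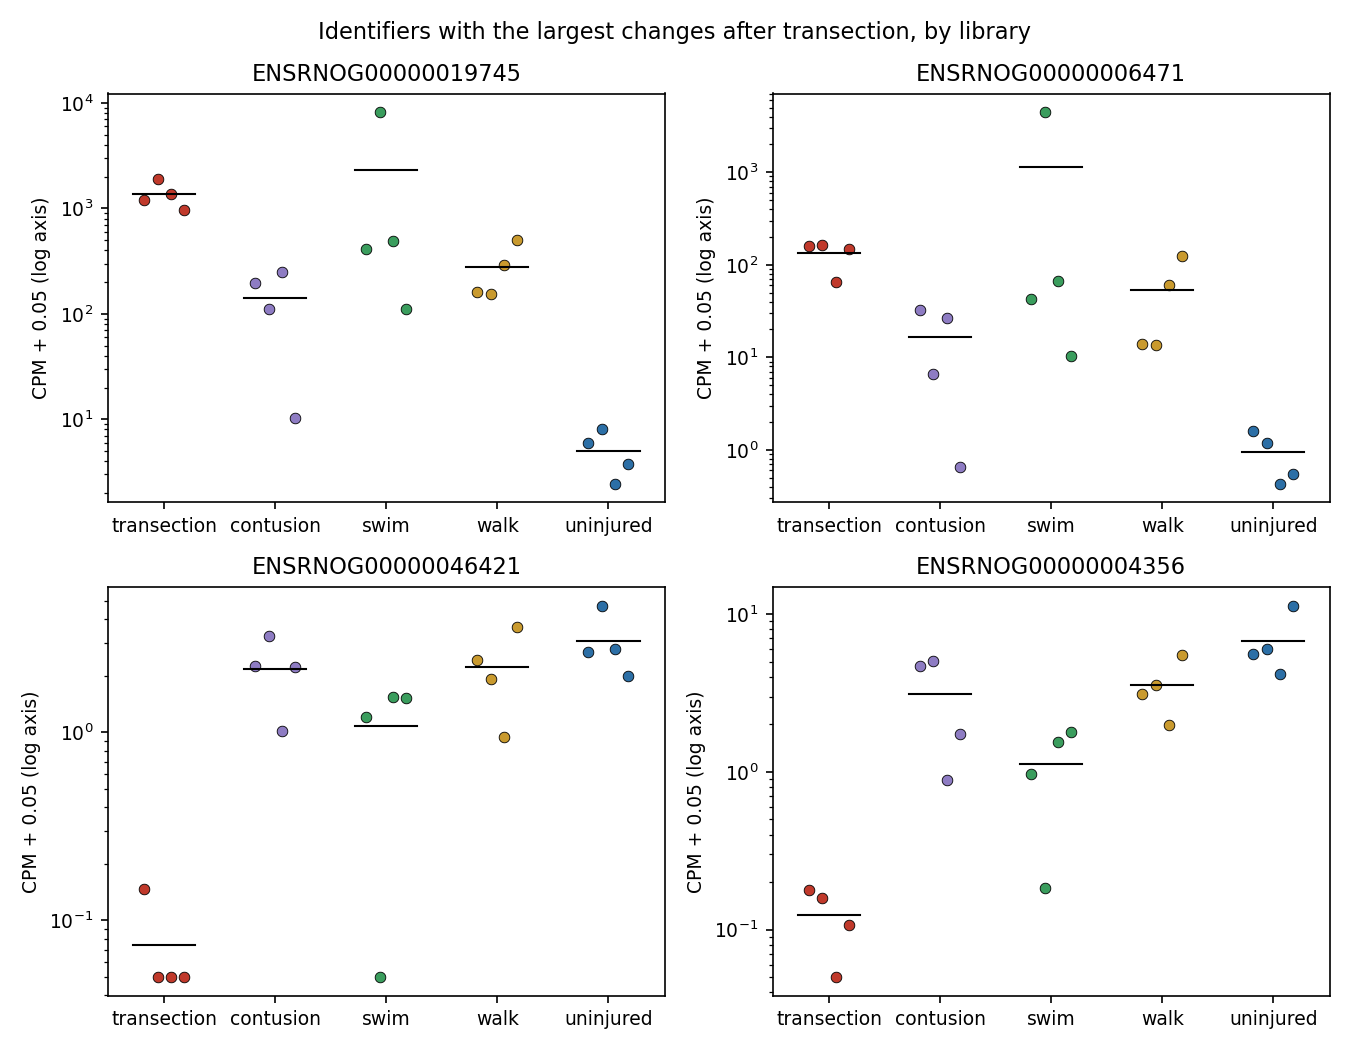
Level of the 4 named identifiers in each of the 20 libraries, as CPM plus 0.05 on a log axis, with groups along the horizontal axis, a point per library and a bar at each group's mean. For each identifier the 4 transection libraries lie apart from the 4 uninjured libraries, and a swimming library lies above every transection library for the identifiers that rose.

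Contused rats held intermediate mean levels of all 4 identifiers. ENSRNOG00000019745 ran from 10.3 to 248 CPM and ENSRNOG00000006471 from 0.611 to 32.5 CPM in contusion libraries, so contused rats differed from each other many-fold. Neither identifier passed the direct test of transection against contusion (log2 differences of 3.27 and 3.03, SE 1.10 and 1.48, edgeR adjusted p = 0.0538 and 0.181). Yet the lowest transection library lay above the highest contusion library for both, at 965 against 248 CPM and 65.0 against 32.5 CPM. The fit shares its estimate of spread with the swimming libraries, of which library 2 held 8209 and 4469 CPM. The effect of swimming library 2 on the tests of these identifiers against contusion was not tested. The identifiers that fell stood at 2.13 ± 0.913 CPM (ENSRNOG00000046421) and 3.05 ± 2.10 CPM (ENSRNOG00000004356) after contusion (SD, n = 4 each). Transection minus contusion gave log2 differences of -6.15 and -5.22 (edgeR adjusted p = 0.000345 and 0.000274). All 4 identifiers were chosen on the same transection libraries, which favours this direction, so these differences describe them and are no independent test. For contusion against uninjured, which shares the uninjured libraries, their log2 differences were -0.49 and -1.14 and did not pass (adjusted p = 0.852 and 0.493).

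In exercised contused rats the identifiers that rose spanned a wide range. Swimming library 2 held 8209 CPM of ENSRNOG00000019745 and 4469 CPM of ENSRNOG00000006471, above every transection library. The other swimming libraries ran from 112 to 494 CPM and from 10.3 to 66.0 CPM, and walking libraries from 155 to 502 CPM and from 13.5 to 124 CPM. Swimming library 2 also had 0 counts of ENSRNOG00000046421 and 3 counts of ENSRNOG00000004356. The last of these, at 0.132 CPM, lay just above the highest transection library, at 0.129 CPM.

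Over all genes, the direct test of transection against contusion called 2053 genes (15.3%), 813 higher (6.07%) and 1240 lower (9.26%) after transection. Transected rats carry a label of 8.5 weeks, while contused and uninjured rats share 11.5 weeks. Kind of injury and labelled time cannot be told apart in this test. The number of higher genes varied with the library left out, from 434 to 878. It was 461 and 438 without transection library 2 or 3, and 534 and 434 without contusion library 1 or 2. A fit with a library left out also has a smaller group, so these numbers do not show that calls rest on that library. Without transection library 3 and swimming library 2 together, 1919 genes were called, 644 higher and 1275 lower. The lower genes numbered 891 to 1297 whichever library was left out. Library totals as the only scaling gave 218 higher and 2293 lower genes, and voom gave 1295 higher. Contusion against uninjured, which shares libraries with both other comparisons, called 0 genes in the edgeR fit (0%) and 1313 at an unadjusted p below 0.05, while DESeq2 called 99 and voom 24 (added after seeing the data).

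Transection concentrated the counts in fewer genes. In each library the top 10 genes by count held 34.4, 38.5, 38.1 and 32.0% of all counts in transection libraries 1 to 4, against 22.4, 25.4, 26.2 and 23.6% in uninjured libraries 1 to 4. The groups did not overlap, and the means were 35.7 ± 3.10% and 24.4 ± 1.72% (SD, n = 4 each). An exact two-sided permutation test gave p = 0.0286, its smallest possible value with 4 libraries a group, and 0.0429 after Benjamini-Hochberg adjustment over 9 library measures. Without transection library 3 the difference was 10.6 percentage points, against 11.3 with it.

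Fewer genes made up 50% of the counts after transection. This share came from 30, 23, 21 and 36 genes in the transection libraries, against 94, 78, 72 and 78 genes in the uninjured ones (exact two-sided permutation p = 0.0286, adjusted 0.0429, higher count in 4 of 4 uninjured libraries). To reach 90% took 2053 to 2860 genes after transection and 2994 to 3318 in uninjured muscle. The number of genes with a count, brought to an equal depth of 26195066 counts, was 14825 ± 735 in transected rats and 15528 ± 123 in uninjured rats (SD, n = 4 each), a difference that did not pass (exact permutation p = 0.0571, adjusted 0.0735). Transection library 3 was the lowest, at 13780 genes.

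**Figure D4:**
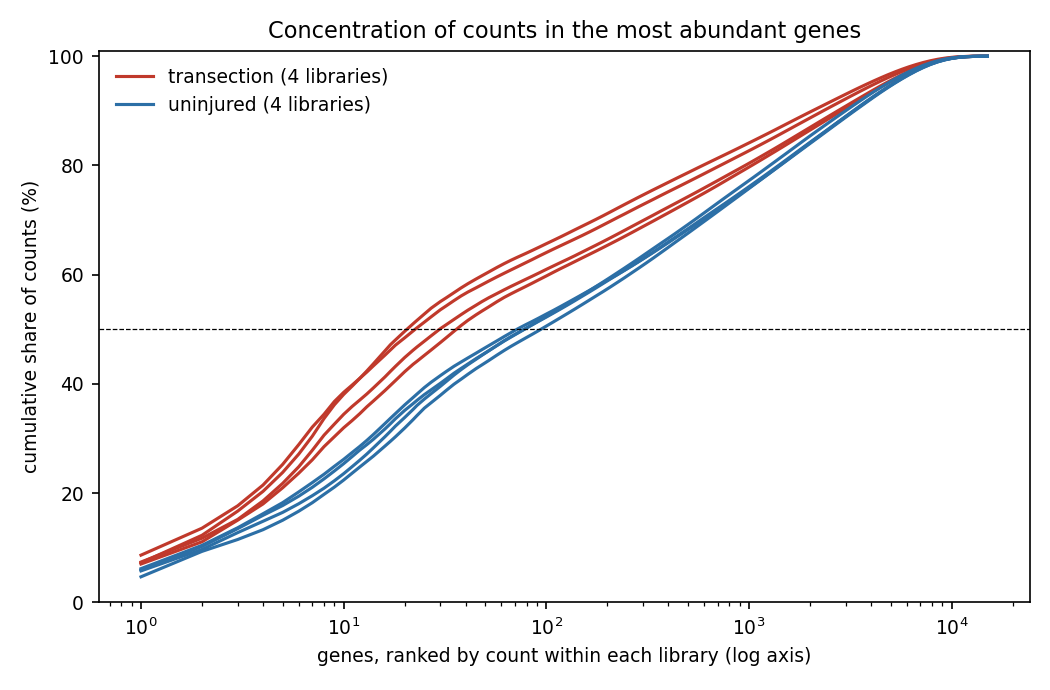
Cumulative share of counts (vertical axis, %) against the number of genes ranked by count within each library (horizontal log axis), a line per library. The 4 transection lines cross 50% (dashed) at 21 to 36 genes and the 4 uninjured lines at 72 to 94 genes.

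The most abundant genes were largely the same in both groups. A single gene was the most abundant in both, at 7.39, 8.66, 7.25 and 7.03% of counts in transection libraries and 4.69, 5.93, 6.18 and 5.78% in uninjured ones (log2 change 0.79 with an SE of 0.17, edgeR adjusted p = 0.00187). Of the 10 genes with the highest mean CPM in each group 7 were shared, and of the 500 highest 413 were shared. Counts were not corrected for gene length, so the order of genes is one of counts and not of transcripts.

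Between the groups, genes exchanged 27.6 percentage points of the counts, on raw shares of library totals. The gain was narrow: 10 genes took 17.6 points, or 63.8% of it, and 20 genes took 85.4%. The loss was spread wider, with 33.4% of it in 10 genes and 53.3% in 50. Shares are relative, so a gain in some genes lowers the share of the others even at an unchanged level. The 10 genes that gained most held 31.7, 35.8, 34.4 and 28.5% of counts in transection libraries 1 to 4, against 12.6, 16.2, 16.6 and 14.6% in uninjured libraries 1 to 4. The mean over transection libraries was 32.6 ± 3.22% (SD, n = 4), and 32.0% without library 3. All 10 were called higher, with log2 changes of 0.79 to 4.59. Of the 10 that lost most, 6 were called lower and 4 did not pass, with log2 changes of -3.71 to 0.18 over the 10. These genes were chosen by their difference, so the values describe it and test nothing.

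The gene with the largest gain differed widely among uninjured rats. It held 2.77, 2.35, 3.35 and 2.44% of counts in transection libraries, against 0.195, 0.317, 0.00259 and 0.0826% in uninjured ones. In CPM, uninjured libraries ranged from 23.8 in library 3 to 2950 in library 2, while transection libraries ranged from 25654 to 47148. It rose by 4.57 on the log2 scale, with an SE of 0.97 (edgeR adjusted p = 0.00215), and was the gene with the 8th highest mean CPM after transection and the 65th in uninjured muscle. The gene with the largest loss held 0.342, 0.479, 0.323 and 0.538% of counts in transection libraries, against 2.17, 3.26, 3.22 and 3.08% in uninjured ones (log2 change -2.47, SE 0.56, adjusted p = 0.00310). It ranked 29 after transection and 3 in uninjured muscle.

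Calls grew more frequent with count level. The tested genes were divided into 10 classes of nearly equal size by mean CPM over the 8 libraries. In class 1, up to 0.647 CPM, 5.00% of genes rose and 6.87% fell, while in class 10, above 82.6 CPM, 21.2% rose and 20.6% fell. The median SE of a log2 change was 0.57 in class 1 and 0.15 in class 10, so smaller changes could pass at higher counts. Class 1 genes that passed all exceeded 2-fold. In classes 4 to 9, more genes fell than rose. Without transection library 3 class 10 had 188 rises and 277 falls, against 284 and 276 with it, and with library totals as the only scaling it had 108 and 618.

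**Figure D5:**
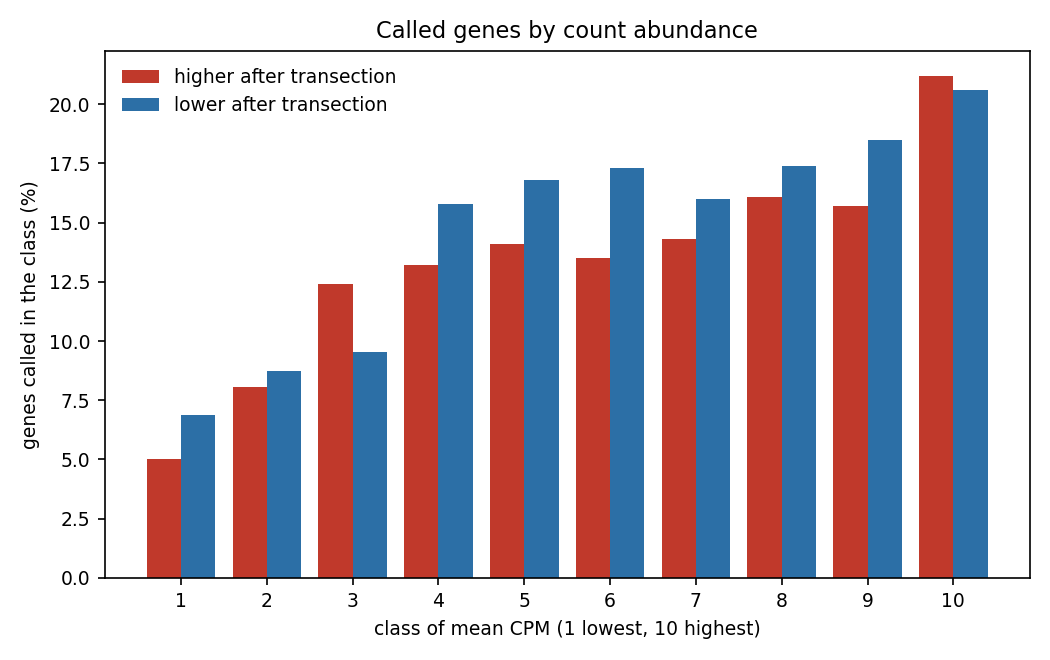
Share of genes called higher and lower after transection (vertical axis, % of the class) in 10 classes of mean CPM (horizontal axis, 1 lowest). Shares run from 5.00% higher and 6.87% lower in class 1 to 21.2% higher and 20.6% lower in class 10.

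Among genes with the very highest counts, rises outnumbered falls. Of 96 genes with a mean of at least 1000 CPM, 37 rose (38.5%), 17 fell (17.7%) and 42 did not pass. The shares were 21.2% and 20.6% in class 10, and 13.4% and 14.7% over all tested genes. Of 12 genes with a mean of at least 10000 CPM, 9 rose (75%), 1 fell (8.33%) and 2 did not pass. The division of the 12 was the same with library totals as the only scaling and without transection library 3. For the 96, library totals gave 33 rises and 31 falls. The mean was taken over both groups, so a gene could enter a band through the group where it was high, whichever that was. These numbers describe the bands and are no test of count level.

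Genes with large changes were found at low and at high levels. Of the 92 genes that rose over 4-fold, 43 stood below 1 CPM in uninjured muscle, and 22 were above 100 CPM after transection. Their median mean level was 10.4 CPM after transection and 1.34 CPM in uninjured muscle. Of the 199 genes that fell over 4-fold, 103 stood below 1 CPM after transection, and 32 had been above 100 CPM in uninjured muscle. Their median mean level was 0.847 CPM after transection and 4.63 CPM in uninjured muscle. Over all 13398 tested genes, 1955 stood below 1 CPM after transection and 1961 in uninjured muscle, and the medians were 10.8 CPM and 11.2 CPM. The 4-fold limit and the low-count filter themselves favour rises that start low and falls that end low, so these counts are a description only.

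Few genes were present in a single group alone. Over the whole table, 4 genes had counts in all 4 transection libraries and 0 counts in all 4 uninjured libraries. The reverse was found for 39 genes, with 0 counts in all transection libraries. The numbers were 18 and 42 without transection library 3. These genes had few counts where they were found, with a median of 11 and 13 summed over 4 libraries and a maximum of 20 and 138. The low-count filter kept 0 of the 4 and 2 of the 39, and both of these were called lower.

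Abundant genes with large changes formed small sets that shared an order of libraries. In class 10, 19 genes rose over 4-fold. They held 10.1, 9.81, 12.0 and 9.25% of counts in the transection libraries, against 1.36, 1.87, 0.579 and 0.974% in the uninjured ones. Uninjured library 2 was the highest uninjured library for 18 of the 19 and uninjured library 3 the lowest for 13. Among transected rats, library 3 was the highest for 13 and library 4 the lowest for 16. Within uninjured muscle the highest library was 3.06 times above the lowest for the median gene of this set and up to 240 times for the widest. Within transected muscle these values were 1.94 and 4.81 times.

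The 24 genes of class 10 that fell over 4-fold were more even among uninjured rats. They held 0.705, 0.820, 0.737 and 1.33% of counts in the transection libraries, against 6.90, 7.08, 7.38 and 7.65% in the uninjured ones. Transection library 4 was the highest transection library for 17 of the 24. Among uninjured libraries, library 4 was the highest for 13 and library 2 the lowest for 14. Transection library 4 was thus nearest to uninjured muscle in most genes of both sets, and uninjured library 2 nearest to transected muscle in most of them.

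All 4 transected rats moved the same way, by different amounts. Over the genes that rose, the median log2 distance from the uninjured mean was 0.66, 0.75, 0.84 and 0.61 in transection libraries 1 to 4. Over the genes that fell it was -0.82, -0.85, -1.01 and -0.80. Library 3 was the farthest transection library for 49.8% of the genes that rose and 44.0% of those that fell, and library 4 was the nearest by median in both. Each transection library lay above the uninjured mean for at least 98.4% of the genes that rose, and below it for at least 99.6% of those that fell. The calls rest on these same libraries, so these values only describe how the rats differ.

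The spread among transected rats was wider with library 3 than without it. The median SD of a gene's log2 CPM was 0.28 among transection libraries and 0.24 among uninjured ones, and 60.9% of genes varied more after transection. Without transection library 3 the median SD was 0.20 in transection libraries, and 42.6% of genes varied more after transection. That share sets fewer transection libraries against all uninjured ones. Library 3 was left out because it stood apart, which favours a lower SD. The uninjured median SD also fell, to 0.20 without uninjured library 1 and 0.21 without uninjured library 4. These values are a description and no test of spread.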

How the data were processed

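Poly-A RNA from soleus was made into stranded libraries, per the labels' protocols. The deposited table held unnormalised counts in whole numbers, with separate animals as replicates per the design text. The submitters' processing notes name FastQC 0.10.1, HTSeq and the rn6 build. Which aligner, annotation and strand setting were used is not given in the sources used here, so overlapping or near-identical genes may share counts. Of 24613 identifiers, 13398 passed filterByExpr (minimum count 10), and 0 rows named no gene.

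All 20 libraries entered 1 edgeR 4.0.16 quasi-likelihood fit (R 4.3.3, robust option, trimmed mean of M values scaling, a mean per group, 15 residual degrees of freedom). The SE of a log2 change is its size over the root of the F statistic. Library measures were compared by exact two-sided permutation tests. Genes at equal depth are the number expected on drawing the smallest total without replacement. Alternatives were DESeq2 1.42.0, voom with sample weights (limma 3.58.1), other scalings, filters and sample sets, and each library left out. Intervals cover counting error only.

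Gene lists and comparisons were chosen with earlier results of these data known. The 19 gene lists and 13 marker lists needed names and were not applied; in their place the 2 highest and 2 lowest log2 changes were named, among called genes with a mean of at least 1 CPM over the 8 libraries and no overlap between groups. Abundance bands and share exchange were chosen after seeing the data. No library was a copy of another, since chi-square per degree of freedom ran from 43.3 to 133 within groups. On simulated counts for 13040 genes with 200 changed, for transection against uninjured, edgeR found 16.4% of genes changed 1.5-fold, 59.7% at 2-fold and 87.9% at 4-fold, with 2 false calls. The simulation set all groups at the uninjured mean, drew directions at random and made no library stand apart. It also changed far fewer genes than were called in the data. Its rates describe the test under those settings and do not carry over to the data. Figures were drawn with matplotlib 3.10.9.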

Additional observations from a re-analysis of the deposited data

Results flagged for a closer look

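Of 44 sets of 4 values examined, 9 had an extreme library set apart by a wide gap. About 2.2 such sets were reckoned to arise by chance. Several flagged sets are related measures of uninjured library 4, others are levels of identifiers chosen for their large changes, and some values are 0. The numbers 9 and 2.2 are therefore no test. Uninjured library 4 had a scaling factor of 0.982 (next lowest 1.08), 15344 genes at equal depth (next lowest 15577) and 2994 genes holding 90% of counts (next lowest 3268). Uninjured library 2 lay at -31.0 on the first component of the 8 libraries, nearer to transected muscle than the next uninjured library at -43.5. Transection library 3 lay at -54.5 on the second component, where the next lay at 22.6, and held 65.0 CPM of ENSRNOG00000006471, where the next lowest held 149. For ENSRNOG00000046421, transection library 1 gave 0.0970 CPM, while transection libraries 2 to 4 each gave 0. In the second swimming library ENSRNOG00000019745 reached 8209 CPM, where the next highest of that group reached 494, and ENSRNOG00000006471 reached 4469 CPM, where the next reached 66.0.

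Set directly against contusion, which carries another time label (11.5 against 8.5 weeks), transection differed at 2053 genes. Among the named identifiers, which were chosen on the same transection libraries, the difference passed for ENSRNOG00000046421, at a log2 value of -6.15 (edgeR adjusted p = 0.000345), and for ENSRNOG00000004356, at -5.22 (adjusted p = 0.000274).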

How the results depend on the processing

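Of 323 values recomputed under alternatives, 298 kept their direction and their side of the threshold or stayed within 1.5 times the reported count. Log2 changes of the 4 named identifiers kept their direction and call under every alternative that gave an adjusted p; DESeq2 gave none for ENSRNOG00000006471. Library totals as the only scaling gave 506 higher and 4191 lower genes for transection against uninjured, and 218 and 2293 against contusion. Voom gave 1295 higher genes against contusion. With each library left out in turn, genes higher against contusion ran from 434 to 878. The cause of these moves was not tested. Fits with the replicate block called 3665 genes against uninjured. Replicate numbers did not pair the libraries, since correlations of same-numbered deviations ran from -0.232 to -0.0601 and 0 of 4 transection libraries correlated best with their own number.

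With a library left out, the difference of transection minus uninjured ran from -711178 to 3800440 in total counts, which changed sign without uninjured library 1. It ran from -930 to -339 in genes with a count and from -898 to -354 in genes at equal depth. It ran from -843 to -574 in genes holding 90% of counts and from -0.259 to -0.179 in the scaling factor, where the exact p rose to 0.0571. Counts of listed genes were not run, for lack of names. Having 4 libraries a group limits what small changes could pass.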
